A study of Mus musculus with 6 samples.

Results

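The genes described here build the machinery that brings nuclear-encoded proteins into mitochondria, and the chaperones and proteases that fold or remove them there. They were taken by symbol: every gene named Tomm or Timm followed by a number, together with Chchd4, Gfer, Pmpca, Pmpcb, Hspd1, Hspe1, Hspa9, Dnaja3, Trap1, Clpp, Clpx, Lonp1, Yme1l1, Afg3l2 and Spg7. This gave 39 genes among 23094 rows with a gene name, of which 28 act in import and 11 are chaperones or proteases. RNA-seq libraries came from erythroid cells of the C57BL/6 mouse fetal liver at embryonic day 13.5, sorted as positive for Ter119, which marks the red cell lineage, and for the transferrin receptor CD71. The labels name 3 libraries Tfam WT and 3 Tfam KO, and Tfam encodes a transcription and packaging factor of mitochondrial DNA. The sources used here do not give the allele, any Cre driver, the litter or the sex. No source states that replicates came from different embryos, and the p-values then cover only library-to-library spread, which may be technical.

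Nearly all mitochondrial proteins are made in the cytosol and must cross the organelle's membranes. The TOM complex forms the entry gate in the outer membrane. Small TIM proteins escort hydrophobic precursors through the intermembrane space, where a disulfide relay also folds incoming proteins, and the TIM22 and TIM23 complexes carry precursors into or across the inner membrane. In the matrix the mitochondrial Hsp70 pulls precursors in, a peptidase removes their targeting sequence, Hsp60 and Hsp10 fold them, and ATP-dependent proteases clear what is damaged or in excess. Erythroblasts depend on this route for heme synthesis, since enzymes such as Alas2 are imported into the matrix.

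The values are RPKM, reads scaled to transcript length and to the library total. The RPKM sum was 423263 to 535933 in 5 libraries and 815524 in WT replicate 3, the library least like the rest (correlations of log2 values across genes of 0.930 to 0.962, against 0.973 to 0.986 among the other 5). Absolute depth is unknown. Low values placed WT replicate 1 and KO replicates 2 and 3 at 79.0% to 88.3% of the depth of WT replicate 2. KO replicate 1 was placed at 92.3%, but less sharply. Only 44.4% of its low values lay at ratios of small whole read numbers, against 80.3% to 82.5% for those libraries. WT replicate 3 was not resolved. Tfam read 7.22, 8.44 and 5.72 RPKM under the WT label and 5.92, 7.22 and 6.25 under the KO label, and these overlap (p = 0.7 in a two-sided exact permutation test that can reach 0.1 at the lowest). The gene's level therefore does not check the labels. The 10 erythroid markers examined were present in every library, at 97.7 RPKM or more. Group medians and most log2 fold changes of single genes are given with and without WT replicate 3, since that library stands apart.

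No gene of the set differed between KO and WT beyond the spread between libraries. Of the 39 genes, 37 had a mean of at least 1 RPKM and entered a limma test on log2(RPKM + 1) over 8302 rows. With limma, 0 of the 37 passed an adjusted p of 0.05 (lowest adjusted p = 0.909) and 0 had an unadjusted p under 0.05. The background was 0.0% of all tested rows at the adjusted threshold and 1.2% at the unadjusted one. Without WT replicate 3 the count was again 0 of 37, against 0.012% and 2.2% of all rows. With library weights estimated in limma it was 0 of 37 at the adjusted threshold and 2 at the unadjusted one (Timm17a and Clpx), against 0.723% and 13.8% of all rows. The WT libraries had weights of 21.5, 0.565 and 0.0859 in the order of their numbers, so that the WT group was in effect 1 library and nothing is read from these calls. The remaining members, Tomm20l and Timm8a2, were at most 0.0893 and 0.0980 RPKM in any library. They are gene copies that lay below the filter and were not tested.

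Fitted values were mostly lower in KO, and leaving out WT replicate 3 changed this more than leaving out any other library. With all libraries 31 of 37 members had a lower fitted value in KO and the median log2 fold change was -0.15, beside 53.0% lower and a median of -0.02 over all tested rows. When values were scaled to the RPKM sum without globins, 15 of 37 were lower, a scaling that moved the median of all rows to 0.17. KO replicate 1 was the lowest library for 22 of 37 members (59.5%), beside 22.5% of all tested rows. When KO replicate 1 was left out 27 of 37 were lower, and likewise 27 when KO replicate 3 was left out. Without WT replicate 3, 22 of 37 were lower and the median was -0.01, beside 55.0% and -0.01 over all rows. The 95% intervals of single genes then lay between -0.62 and 0.69 on the log2 scale, so differences of that size fall within the widest of them. The median half-width of an interval was 0.47 with all libraries and 0.35 without WT replicate 3.

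**Figure D1:**
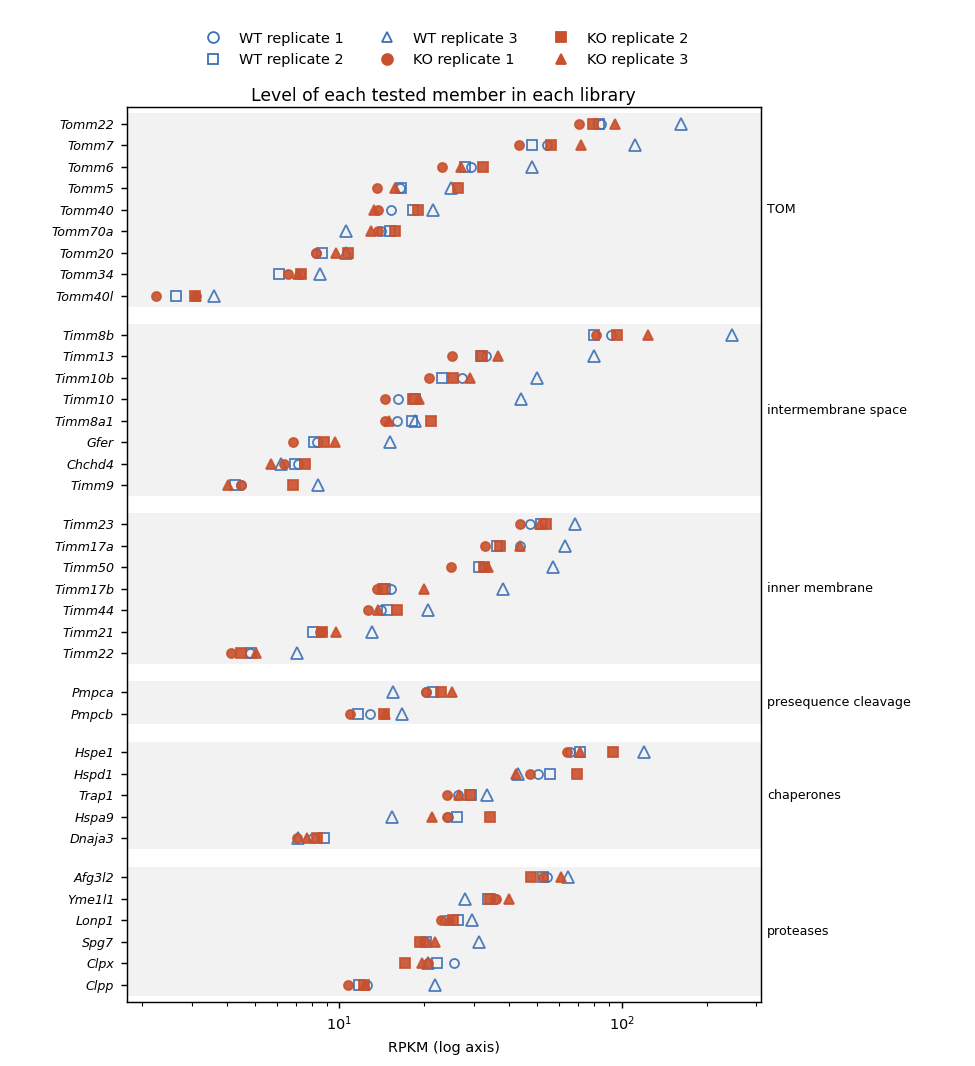
Level of each tested gene in RPKM on a log axis, 1 symbol per library, with open blue symbols for WT and filled red symbols for KO, grouped by role. WT replicate 3 (open triangle) is the highest library for 26 of the 37 genes (70.3%, beside 41.7% of all tested rows). It is the lowest for 4 (10.8%, beside 36.8%).

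**Figure D2:**
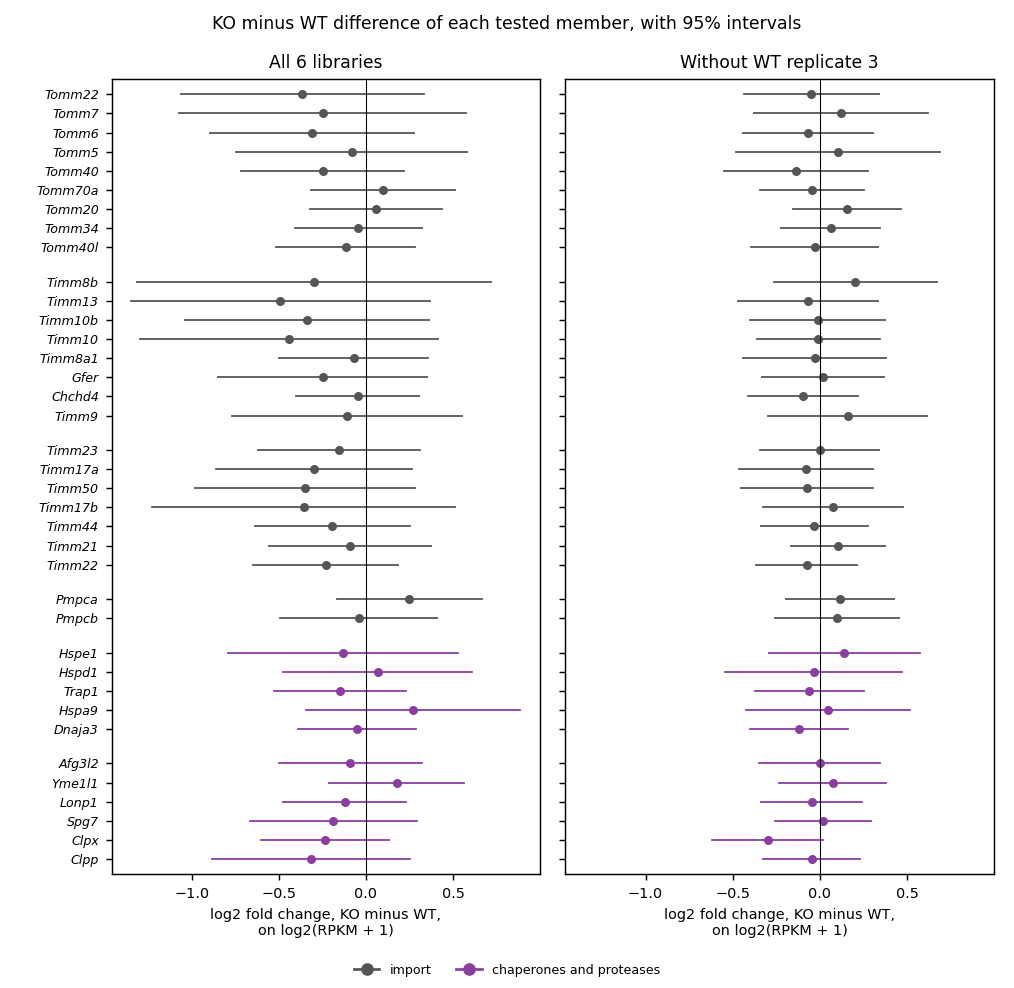
Log2 fold change of KO against WT on log2(RPKM + 1) for each tested gene (point) with its 95% interval (line) from the limma fit, with all 6 libraries on the left and without WT replicate 3 on the right. Every interval includes 0 in each panel. The median half-width is 0.47 on the left and 0.35 on the right, while some genes, such as Clpx and Tomm20, lie further from 0 on the right.

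The levels spanned a wide range along the entry gate of the outer membrane. Tomm22, the central receptor that organises the TOM complex, was at 84.6, 83.0 and 162 RPKM in WT and 70.5, 79.0 and 95.02 in KO. WT replicate 3 was the highest library, and the KO values overlapped those of the other WT libraries. The log2 fold change was -0.37 (SE 0.30) with all libraries and -0.05 (SE 0.17) without WT replicate 3. Tomm7, a small subunit that adjusts the stability of the complex, was at 54.6, 48.3 and 111 RPKM in WT and 43.2, 56.0 and 71.8 in KO. Its groups overlapped too, and its log2 fold change went from -0.25 (SE 0.35) to 0.12 (SE 0.21) without WT replicate 3. The pore subunit Tomm40 had a mean of 18.3 ± 3.05 RPKM in WT and 15.3 ± 3.18 in KO (SD, n = 3 each). Its log2 fold change was -0.25 (SE 0.20), or -0.13 (SE 0.18) without WT replicate 3. Its paralog Tomm40l was much lower, at 2.23 to 3.60 RPKM over the 6 libraries. The receptors Tomm20 (8.25 to 10.7 RPKM) and Tomm70a (10.6 to 15.7 RPKM) varied little, with log2 fold changes of 0.06 (SE 0.16) and 0.10 (SE 0.18). Without WT replicate 3 these were 0.16 (SE 0.13) and -0.05 (SE 0.13). Tomm70a was lowest in WT replicate 3, unlike most of the set. The small subunits Tomm6 (23.1 to 48.2 RPKM) and Tomm5 (13.6 to 26.3 RPKM) had log2 fold changes of -0.31 (SE 0.25) and -0.08 (SE 0.28). These went to -0.07 (SE 0.16) and 0.10 (SE 0.25) without WT replicate 3. Tomm34, a cytosolic co-chaperone that bears the family name, was at 6.12 to 8.51 RPKM. In all, 7 of the 9 tested Tomm genes had a lower fitted value in KO (median -0.11), and 5 of 9 without WT replicate 3 (median -0.03).

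The small TIM chaperones of the intermembrane space held the most abundant member of the set and the widest spread. Timm8b, which pairs with Timm13 to escort a subset of inner membrane precursors, was at 91.7, 80.1 and 246 RPKM in WT and 81.3, 96.1 and 124 in KO. The value of WT replicate 3 was far above the rest, and the other libraries overlapped between groups. The log2 fold change was -0.30 (SE 0.43), or 0.20 (SE 0.20) without WT replicate 3. Timm13 had the fitted value furthest from 0 in the set. It was at 33.1, 31.8 and 79.5 RPKM in WT and 25.1, 32.1 and 36.6 in KO. Here too WT replicate 3 alone stood above, and the log2 fold change was -0.49 (SE 0.36) with it and -0.07 (SE 0.17) without it. Timm10, a partner of Timm9, went from -0.44 (SE 0.36) to -0.01 (SE 0.15), and Timm10b, a small TIM of the TIM22 complex, from -0.34 (SE 0.30) to -0.01 (SE 0.17). Timm8a1, the mouse gene of the deafness dystonia protein family, was even across libraries at 14.6 to 21.0 RPKM. The disulfide relay was low. Its oxidoreductase Chchd4 was at 6.77 ± 0.478 RPKM in WT and 6.54 ± 0.930 in KO, and Gfer, the sulfhydryl oxidase that reoxidises it, at 10.5 ± 3.96 and 8.44 ± 1.43 (SD, n = 3 each). The log2 fold change of Gfer was -0.25 (SE 0.25), or 0.02 (SE 0.15) without WT replicate 3. That of Chchd4 was -0.05 (SE 0.15), or -0.10 (SE 0.14) without that library. All 8 tested genes of this compartment had a lower fitted value with all libraries (median -0.27), and 5 of 8 without WT replicate 3 (median -0.01).

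At the inner membrane, all 7 genes were highest in WT replicate 3, as were 41.7% of all tested rows. Timm23, the channel subunit that gives the presequence translocase its name, was at 47.4, 51.7 and 68.6 RPKM in WT and 43.6, 54.1 and 51.2 in KO. The groups overlapped, with a log2 fold change of -0.16 (SE 0.20), or -0.00 (SE 0.15) without WT replicate 3. Its partner subunit is encoded by a gene pair. Timm17a was at 43.5, 36.2 and 63.1 RPKM in WT and 32.7, 37.0 and 43.5 in KO, and Timm17b at 15.2, 14.6 and 37.9 in WT and 13.6, 14.3 and 19.95 in KO. Timm17a was the more abundant copy in every library, and each copy overlapped between groups. Timm50, the receptor that takes presequences from TOM, was at 40.2 ± 14.6 RPKM in WT and 30.4 ± 4.88 in KO (SD, n = 3 each). Its log2 fold change went from -0.35 (SE 0.27) with all libraries to -0.08 (SE 0.16) without WT replicate 3. Timm44, which tethers Hsp70 to the channel, shares its row with Ctxn1, so its 12.7 to 20.5 RPKM cannot be assigned to it alone. Timm22, the carrier translocase, was among the lowest tested genes at 4.12 to 7.05 RPKM. Timm21, a subunit that links TIM23 to TOM, was the only import gene whose groups separated once WT replicate 3 was left out. It was at 8.56, 8.08 and 12.999 RPKM in WT and 8.66, 8.68 and 9.74 in KO. The KO libraries lay above WT replicates 1 and 2 by little, with a log2 fold change of 0.10 (SE 0.11, 95% interval -0.16 to 0.37, limma unadjusted p = 0.392). Such a separation upward was found for 5.42% of all tested rows.

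The matrix peptidase that cuts off targeting sequences is a dimer of Pmpca and Pmpcb. Pmpca was at 20.3, 21.5 and 15.5 RPKM in WT and 20.3, 23.0 and 25.0 in KO. WT replicate 3 was the lowest library, and the rest overlapped. Its log2 fold change was 0.25 (SE 0.18), or 0.11 (SE 0.13) without WT replicate 3. Pmpcb was at 12.8, 11.7 and 16.7 RPKM in WT and 10.9, 14.4 and 14.5 in KO. Its log2 fold change was -0.04 (SE 0.19), or 0.10 (SE 0.15) without WT replicate 3. WT replicate 3 was therefore at opposite ends for the subunits of 1 enzyme.

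Among the chaperones the highest library was a KO library for Hspd1 and Hspa9 and a WT library for the others. Hspd1, the Hsp60 ring, was at 50.7, 55.9 and 42.8 RPKM in WT and 47.5, 69.7 and 42.2 in KO. Hspe1, the Hsp10 lid of that ring, was at 65.4, 71.1 and 121 RPKM in WT and 64.1, 93.4 and 71.0 in KO. Hspa9, the mitochondrial Hsp70 that drives import and has a known role in red cell formation, was at 24.2, 26.0 and 15.4 RPKM in WT and 24.1, 34.3 and 21.2 in KO. All 3 were higher in KO replicate 2 than in any other library except, for Hspe1, WT replicate 3, while KO replicates 1 and 3 lay near or below WT replicates 1 and 2. The log2 fold changes were 0.07 (SE 0.23) for Hspd1, -0.13 (SE 0.28) for Hspe1 and 0.27 (SE 0.26) for Hspa9. The Hsp70 co-chaperone Dnaja3 (7.06 to 8.81 RPKM) and the Hsp90 of mitochondria, Trap1 (24.1 to 33.3 RPKM), were more even. KO replicate 2 also held the highest summed level of the 8 hepatocyte markers examined (138 RPKM, against 15.04 to 87.0 in the others). These markers were above 0 in every library, with sums of 41.6 to 87.0 RPKM in WT and 15.04 to 138 in KO, and their part in the chaperone values was not tested.

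Hspd1 and Hspe1 stand head to head and share the DNA between their start sites. That DNA holds a run of 4 alternating GAA and TTC units, the letters that heat shock factors are known to bind, and a run of 3 units was found in 1 other member searched, Timm9. The sequences are from RefSeq (build GRCm38.p6), each on its gene's strand and read 5′ to 3′, with the run in capitals; they are shown because these are the members with a run of at least 3 units. These genes were all highest in KO replicate 2 among the 5 libraries other than WT replicate 3, as were 14 of the 37 tested members (37.8%) and 15.9% of all tested rows, so this is not particular to them.
Hspd1, chr1:55088053-55088082, minus strand: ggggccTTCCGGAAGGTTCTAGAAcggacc
Hspe1, chr1:55088053-55088082, plus strand: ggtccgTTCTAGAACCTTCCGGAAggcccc
Timm9, chr12:71136857-71136885, minus strand: attaggctTTCTAGAAATTTCgacagatt
The run begins 144 bases before the start of Hspd1, 89 before that of Hspe1 and 202 before that of Timm9. The first 2 lines are the same bases read from either strand. The search was for 3 alternating units, GAA and TTC in either order, with any 2 bases between them, in the 250 bases before and 50 from each start on. Such a run was present for 3 of the 34 members with a RefSeq promoter (all but Hspa9, Tomm7, Tomm40l, Timm21 and Afg3l2) and for 0.662% of the 27025 genes in that table. The letters TGATGNAA, a composite element of Atf4 and Ddit3, were searched on both strands and found in 0 of the 34 and in 4.51% of all genes. The palindrome bound by Nrf1 was found in 0 of the 34 and in 1.07%. No match says only that these letters are not in this window.

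The values of Timm9 and of some heat shock genes are given next. Timm9, which forms a hexamer with Timm10, was at 4.49, 4.27 and 8.39 RPKM in WT and 4.49, 6.86 and 4.01 in KO. KO replicate 2 stood above the other KO libraries and below WT replicate 3. The row of the inducible cytosolic Hsp70 genes Hspa1a and Hspa1b, chosen after its values were seen, was at 12.7, 195 and 1150 RPKM in WT and 50.6, 28.7 and 709 in KO. That row spanned 90.7-fold over the 6 libraries. It is 1 row picked afterwards, so nothing is read from its order among the libraries. The mRNA of Hsf1, the main heat shock factor, was even across libraries, at 7.25 to 8.74 RPKM. Whether heat shock had a part in the values of Hspd1, Hspe1, Hspa9 and Timm9 was not tested.

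Among the proteases, Clpx was the member with the lowest unadjusted p of the whole set. Clpx, the unfoldase that feeds the ClpP protease and is also known to activate the heme synthesis enzyme Alas, was at 25.5, 22.1 and 20.6 RPKM in WT and 20.7, 17.1 and 19.6 in KO. The groups overlapped only at WT replicate 3 and KO replicate 1, and without WT replicate 3 every KO library lay below the WT libraries. The log2 fold change was -0.23 (SE 0.16, limma unadjusted p = 0.173, adjusted p = 0.909), and -0.30 (SE 0.14, 95% interval -0.62 to 0.02, unadjusted p = 0.0617) without WT replicate 3. A separation downward in that comparison was found for 5.9% of all tested rows. Clpp itself, the protease chamber, was at 12.6, 11.7 and 21.9 RPKM in WT and 10.7, 12.2 and 12.3 in KO. Apart from WT replicate 3 its values were close together, and the log2 fold change was -0.31 (SE 0.24), or -0.05 (SE 0.12) without that library.

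Lonp1, the matrix protease known to degrade Tfam protein, was at 23.6, 26.4 and 29.4 RPKM in WT and 22.8, 25.2 and 24.4 in KO. Without WT replicate 3 its values spanned only 1.15-fold, and the log2 fold change was -0.12 (SE 0.15) with that library and -0.05 (SE 0.12) without it. Afg3l2, a subunit of the m-AAA protease facing the matrix, was at 54.5, 52.6 and 64.5 RPKM in WT and 52.6, 47.8 and 61.0 in KO, the highest of the proteases. Its partner Spg7 was at 23.8 ± 6.42 RPKM in WT and 20.4 ± 1.24 in KO (SD, n = 3 each). The log2 fold change of Spg7 was -0.19 (SE 0.20), or 0.02 (SE 0.12) without WT replicate 3. Yme1l1, the protease facing the intermembrane space that is known to degrade Timm17a protein, shares its row with 4931423N10Rik. That row was at 35.7, 33.7 and 27.8 RPKM in WT and 35.8, 34.2 and 39.9 in KO. WT replicate 3 was the lowest library and KO replicate 3 the highest, with a log2 fold change of 0.18 (SE 0.16), or 0.07 (SE 0.13) without WT replicate 3.

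Import was then set against the chaperones and proteases. With all libraries the median log2 fold change was -0.21 over the 26 tested import genes (23 lower) and -0.12 over the 11 chaperones and proteases (8 lower). Without WT replicate 3 the medians were -0.01 (15 of 26 lower) and -0.04 (7 of 11 lower). The difference of the medians was -0.089 with all libraries and 0.025 without WT replicate 3. Within groups, the difference in median level between the sides had an SD of 0.093 over the 6 libraries, so no order is read. In each library the mean log2 level of import genes was below that of chaperones and proteases, with differences of -0.62, -0.68 and -0.17 in WT and -0.72, -0.58 and -0.51 in KO. WT replicate 3 was thus the library in which the sides came closest, and the KO libraries lay on either side of WT replicates 1 and 2. The difference averaged -0.49 ± 0.28 in WT and -0.60 ± 0.10 in KO (SD, n = 3 each), and -0.65 ± 0.046 in WT without replicate 3 (n = 2).

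The libraries carry replicate numbers shared by the groups. No label states that these numbers pair libraries, and the numbered pairs did not move alike. Between the libraries numbered 1, 31 of 37 genes were lower in KO (median -0.15), beside 55.1% of all tested rows. Between those numbered 2 only 10 of 37 were lower (median 0.09), beside 58.8% of all rows. Between those numbered 3, 32 of 37 were lower (median -0.41), beside 51.3%. Each of these differences also depends on its WT library. The median deviation of import genes from their mean over the libraries was -0.10, -0.13 and 0.43 on the log2 scale in WT and -0.28, 0.04 and 0.01 in KO. On these values KO replicates 2 and 3 were alike and above WT replicates 1 and 2. KO replicate 1 was lowest, and WT replicate 3 stood above all. With the trend with transcript length (described below) removed, the deviations were -0.04, -0.01 and 0.22 in WT and -0.17, 0.08 and -0.04 in KO. KO replicate 3 then lay between WT replicates 1 and 2. In all 3 pairs 8 of 37 genes were lower in KO (21.6%, beside 20.1% of all rows), and 2 were higher (5.41%, beside 10.8%). The 8 were Tomm22, Timm10, Timm17b, Timm22, Trap1, Clpx, Lonp1 and Afg3l2, and the 2 were Pmpca and the row of Yme1l1. With the replicate number as a block in limma, 0 of 37 were called (lowest adjusted p = 0.715), and 0 had an unadjusted p under 0.05, against 0.0% and 3.9% of all tested rows.

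**Figure D3:**
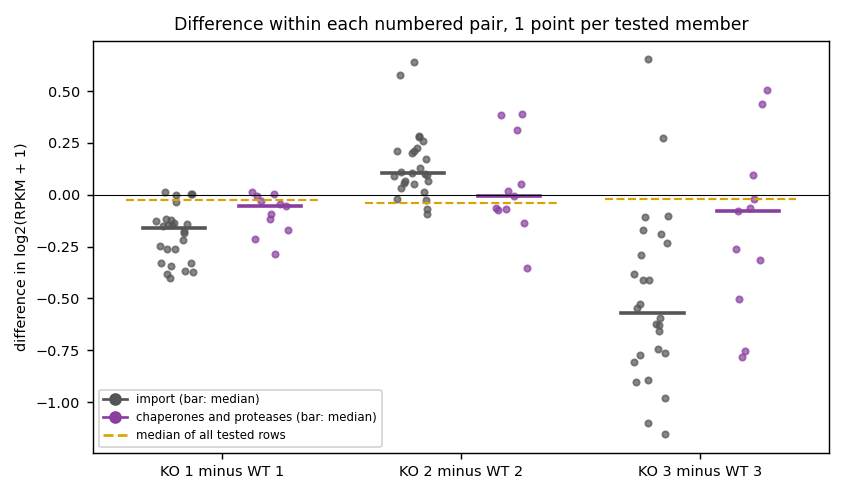
Difference in log2(RPKM + 1) between the KO and the WT library of the same number, 1 point per tested gene, with bars at the medians and a dashed line at the median of all tested rows. Import genes lie mostly below 0 in pairs 1 and 3 and mostly above 0 in pair 2.

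WT replicate 3 departed from the other WT libraries according to transcript length. Lengths are those of the longest transcript in GENCODE release M21, which need not be the isoform these cells use. Among the 10 members with a transcript under 1500 bases, all 10 were above the mean of WT replicates 1 and 2, with a median excess of 0.81 on the log2 scale, beside 0.89 for the 1126 tested rows of that length. Among the 14 with at least 3000 bases, 9 were above it (median 0.26), beside a median of -0.29 for all 4622 such rows. The median of the long members thus lay above that of all long rows. Across the 37 members Spearman's rho between this departure and length was -0.58, and across the 8261 tested rows with a length it was -0.62, both across genes of the same libraries and given as descriptions. Timm8b, with the shortest transcript (518 bases), had the largest departure (1.51), and Hspa9 (3049 bases) the lowest (-0.67). When the trend with length was removed in each library, 25 of 37 members had a lower fitted value, beside 4123 of 8261 rows. The median was then -0.07 for import, -0.04 for chaperones and proteases and 0.00036 for all rows. WT replicate 3 also differed in precursor ribosomal RNA (Rn45s at 5526 RPKM, against 782 to 1143) and in Malat1, a long nuclear RNA (46.6 RPKM, with 76.5 in KO replicate 3 and 158 to 211 in the others). The 8 neutrophil markers, none at 0 in any library, summed to 39.3 to 173 RPKM in WT and 29.2 to 75.0 in KO, with WT replicate 3 the highest, and 6 of the 6 tested had a lower fitted value in KO. The part of these RNAs and markers in the members' values was not tested.

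**Figure D4:**
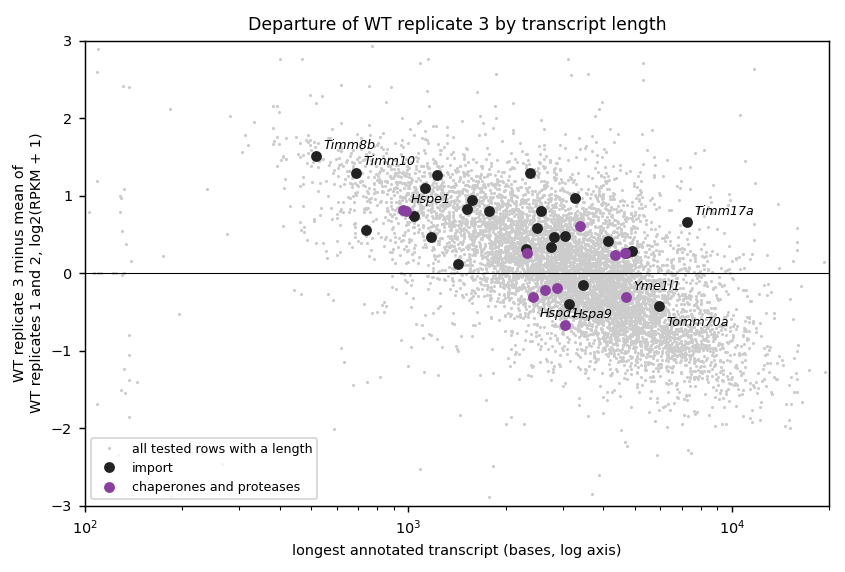
Log2 level in WT replicate 3 minus the mean of WT replicates 1 and 2 against the longest annotated transcript in bases (log axis), for all tested rows (light grey), import genes (black) and chaperones and proteases (purple); 54 rows lie outside the axes. Short transcripts such as Timm8b lie high, and Hspa9 and Tomm70a lie below 0.

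Ratios between partner genes do not depend on a single scale factor per library, and 10 such pairs were taken after the values had been seen. They can still carry a departure that follows transcript length, since partners differ in length. Hspd1 has 2423 bases and Hspe1 964, and Clpp has 983 and Clpx 2885. The part of length in the ratios was not tested. The ratio of Hspd1 to Hspe1, ring to lid, was 0.775, 0.787 and 0.355 in WT and 0.740, 0.746 and 0.594 in KO. Apart from WT replicate 3 and KO replicate 3 it was nearly constant, including in KO replicate 2, where both genes were high. The m-AAA subunits Afg3l2 and Spg7 kept the steadiest ratio of the 10 pairs, at 2.47 to 2.80 without WT replicate 3, in which it was 2.06. Pmpca exceeded Pmpcb by 1.58-fold to 1.87-fold in those 5 libraries, but was below it in WT replicate 3 (0.932).

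Clpp to Clpx was 0.493, 0.531 and 1.06 in WT and 0.517, 0.714 and 0.626 in KO. The KO values lay between or above those of WT replicates 1 and 2, and WT replicate 3 was highest. Hspa9 to its partner Dnaja3 was 2.998, 2.96 and 2.16 in WT and 3.41, 4.12 and 2.76 in KO, which overlap. With all libraries the groups overlapped in each of the 10 ratios. Timm8b to Timm13 was 2.77, 2.52 and 3.09 in WT and 3.23, 2.99 and 3.38 in KO. Its groups overlapped only because KO replicate 2 lay below WT replicate 3. Tomm20 to Tomm70a was 0.589, 0.571 and 0.996 in WT and 0.606, 0.682 and 0.750 in KO. Without WT replicate 3, 3 of the 10 ratios did not overlap between groups: these last pairs and Hspd1 to Hspe1. Among single tested rows 5.42% separated upward and 5.9% downward in that comparison of 2 with 3 libraries, no such share was computed for ratios, and nothing is read from the count.

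**Figure D5:**
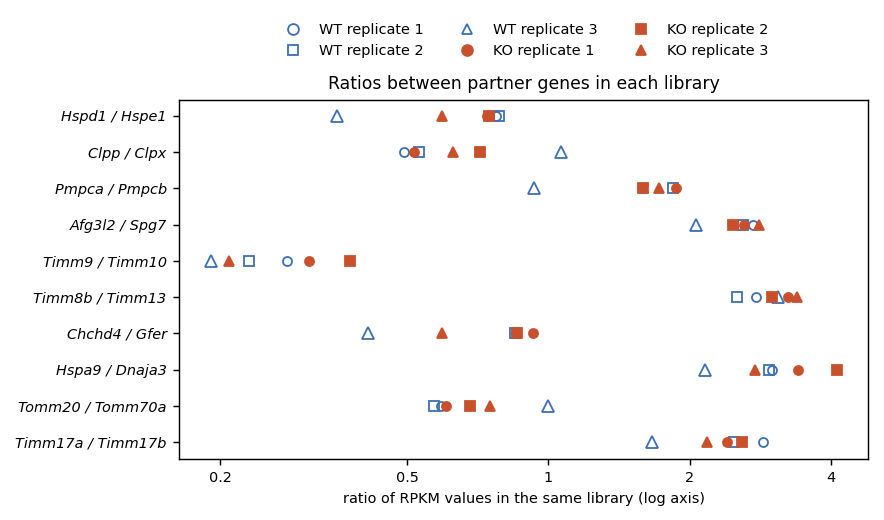
Ratio of the RPKM values of partner genes within each library on a log axis, with open blue symbols for WT and filled red symbols for KO. WT replicate 3 (open triangle) lies at an end of the range for 9 of the 10 pairs, and the exception is Timm8b to Timm13.

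Other genes of the pathway were read from the same fit. Of 30 further genes for sorting, the import motor, peptidases and inner membrane organisation that had a row, 29 were tested. With limma 0 passed and 0 had an unadjusted p under 0.05, against 0.0% and 1.2% of all tested rows. With all libraries 26 of 29 had a lower fitted value in KO (median -0.22), beside 53.0% of all tested rows (median -0.02). Without WT replicate 3, 18 of 29 were lower (median -0.03), beside 55.0% (median -0.01). The most abundant were the row of Stoml2, a scaffold of inner membrane proteases that shares its row with Fam214b, and Romo1, a small inner membrane protein. Stoml2 was at 211, 181 and 319 RPKM in WT and 190, 162 and 231 in KO, and Romo1 at 98.9, 104 and 268 in WT and 79.4, 94.4 and 122 in KO. Each overlapped between groups. Clpb, a disaggregase of the intermembrane space, was the 1 gene of the 29 whose groups did not overlap, at 4.12, 4.09 and 4.08 RPKM in WT and 3.83, 3.95 and 3.69 in KO. The KO libraries were all lower but by little, with a log2 fold change of -0.08, and 2.36% of all tested rows separated downward in that way. The motor parts Dnajc19 and Pam16 had log2 fold changes of -0.39 and -0.36, and 0.05 and 0.06 without WT replicate 3.

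Atf5, a transcription factor linked to the mitochondrial unfolded protein response, was at 5.68, 7.97 and 7.84 RPKM in WT and 17.5, 18.7 and 15.2 in KO. The KO libraries were all above the WT libraries, an upward separation found for 2.18% of all tested rows. The log2 fold change was 1.16 (SE 0.17), with the lowest unadjusted p of all 8302 tested rows (limma unadjusted p = 0.000261). Atf5 did not pass after adjustment (limma adjusted p = 0.909, and 0.385 without WT replicate 3). Atf4, Ddit3 and Hsf1, the other regulators examined, overlapped between groups. Their log2 fold changes were -0.32, -0.37 and -0.08 with all libraries, and -0.03, 0.10 and -0.13 without WT replicate 3. Hspd1, Hspe1, Hspa9, Clpp and Lonp1 are commonly read as outputs of the mitochondrial unfolded protein response. These 5 genes had log2 fold changes of 0.07, -0.13, 0.27, -0.31 and -0.12 with all libraries. Without WT replicate 3 these were -0.04, 0.14, 0.05, -0.05 and -0.05. The 95% intervals of the 5 genes lay between -0.88 and 0.89 with all libraries, and between -0.54 and 0.57 without WT replicate 3. Macrophage markers summed to 12.2 to 18.7 RPKM in WT and 4.55 to 11.7 in KO (9 of 10 with a row, 0 of them at 0 in any library). These sums did not overlap between groups, unlike those of the other marker lists examined. All 6 of the 6 tested markers had a lower fitted value in KO, beside 53.0% of all tested rows. Each marker was low, at 6.05 RPKM or less in every library. The part of macrophage markers in the members' values was not tested.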

How the data were processed

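RNA from 3 Tfam WT and 3 Tfam KO libraries was sequenced, per the labels' protocols. The deposited values are RPKM per gene and library; TopHat, Cufflinks and build mm9 are named in the submitters' processing notes, while the sources used here do not give versions, annotation or strand setting. Of 23119 rows, 25 carry a number in place of a name and were left out (mean 0.158% of the RPKM sum). Each member stood on 1 row.

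Groups were compared on log2(RPKM + 1) by limma 3.58.1 (R 4.3.3), with a variance trend and no block. The 8302 rows whose mean reached 1 RPKM were used, with Benjamini-Hochberg adjustment at 0.05. The fit was also run on simulated data with independent noise, of the same SD for a gene in every library. Those data held no departure shared across genes such as that of WT replicate 3, so they do not check the fit in that setting. Deviations from the group means correlated at 0.46, 0.17 and 0.53 between libraries numbered 1, 2 and 3. WT replicate 2 correlated more with KO replicate 1 (0.40) than with KO replicate 2. Deviations sum to 0 within a group, so a departure shared by the libraries numbered 3 also makes the others correlate. This check therefore cannot establish a pairing, and no label gives one. The pair counts and the block take the shared numbers as pairs on that footing. Lists are described by counts and medians. Members and lists were chosen with earlier results of these data known. Values in every library are given for the 2 most abundant genes and the gene with the largest absolute log2 fold change of each role, for genes whose groups did not overlap (with or without WT replicate 3), and for Timm9 and Lonp1, added after their values were seen. Transcript lengths are from GENCODE M21 (GRCm38) and promoters from RefSeq. Alternatives covered scaling, filter, pseudocount, weights, block, length trend and left-out libraries. Figures used Python 3.11.15 and matplotlib 3.10.9.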

Additional observations from a re-analysis of the deposited data

How the results depend on the processing

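In every setting run 0 members were called. The lowest adjusted p of any member, 0.107, came with library weights, the 1 setting with members at an unadjusted p under 0.05 (Timm17a and Clpx), where WT replicate 1 outweighed the other WT libraries. Over all rows 0 genes passed, except 60 with library weights, 1 when WT replicate 3 or KO replicate 3 was left out, and 2 when KO replicate 2 or both libraries numbered 3 were left out (an alternative added after the data were seen). Leaving out each library in turn gave 0 to 2 genes, a median log2 fold change of -0.30 to -0.011 for import and -0.15 to -0.036 for chaperones and proteases, and a difference of these medians of -0.15 to 0.025 in place of -0.089. The difference was 0.018 without both libraries numbered 3. Scaling to the RPKM sum without globins gave medians of 0.0046 and 0.10, and library weights gave 0.0048 for chaperones and proteases. The replicate block left the medians at -0.21 and -0.12 and called 0 genes, also with the length trend removed. Members whose sign differed from the main one numbered 16 of 37 under the sum scaling, 13 without WT replicate 3, 11 with library weights, 10 with the length trend removed and at most 8 in other settings; the cause was not tested. No counts were available, so depth sets no interval on single values.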
